A study of Mus musculus with 89 samples.

Results

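The fecal bacterial community 4 wk after brain surgery was compared with the pre-injury community of the same animals, to see which groups of gut bacteria held their share of the reads and which differed. Columns of the deposited count table named for the 28 d collection were each paired with the day 0 column that carried the same animal number. This gave 13 animals and 26 of the 91 columns, and all 13 of the 4 wk columns had a pre-injury partner. The 89 labelled fecal samples of the series come from 13 male C57Bl/6j mice (6 sham, 7 CCI) at 7 collections, the last at 4 wk. CCI is controlled cortical impact, in which a piston strikes the exposed cortex, and sham mice received the craniotomy without the impact. The column names give no injury group, so sham and CCI animals were pooled here. Every difference below is one of time with surgery, anesthesia, age, housing and, in part, DNA extraction group in it, which cannot be told apart. Of the 13 mice, 2 had both samples in 1 extraction group.

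All mice, at both collections, had been through the same normalization of the gut microbiome. They received bowel irrigation with polyethylene glycol (PEG) and then repeated gavage of cecal contents pooled from conventionally raised male donors. Before injury all mice were co-housed, with bedding mixed between cages. They were operated on as young adults. After surgery they were housed with mice of their own injury group, and bedding was mixed within each group, so housing differed between the collections. The model is thus limited to 1 sex, 1 strain and 1 shared inoculum, and mice of a cage were not independent in what they could exchange. The number of reads per column was 41077 to 175279 before injury (median 78985) and 22211 to 201686 at 4 wk (median 68333), and it was lower at 4 wk in 8 of 13 animals (exact permutation over sign flips, two-sided, p = 0.572). Depth at these reads allows a variant with a count of 0 a share of up to 0.0073% before injury and 0.0135% at 4 wk in the shallowest column (3 reads of the total, counting error only). Among named variants, those listed as Mitochondria made up at most 0.0148% of the reads of a column and those listed as Eukaryota at most 0.00744%. Named variants, those with a name at any rank, carried 94.9 to 99.8% of the reads of a column, and the rest have no name here. At the genus rank, a mean of 44.8% of the reads before injury and 43.1% at 4 wk had no name. The mean shares of the 39 genera tested summed to 54.9% and 56.4%, so results by genus leave out much of the community. Values are shares of the reads, so fewer bacteria of one group and more of another cannot be told apart.

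The mouse colon is held mainly by obligate anaerobes of the phyla Firmicutes and Bacteroidota. Muribaculaceae, the dominant mouse family of Bacteroidota, break down plant and host glycans, Lachnospiraceae and the Oscillospirales ferment fibre to short-chain fatty acids including butyrate, and Lactobacillus and Bifidobacterium make lactate and acetate. Akkermansia lives on the mucus layer, while facultative anaerobes such as staphylococci and enterococci are normally rare in this community.

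At 4 wk the 2 main phyla had mean shares close to those before injury, and none of the 5 phyla passed the test. Firmicutes had 42.8 to 64.0% of the reads before injury (median 55.9%) and 45.7 to 67.1% at 4 wk (median 55.4%). Bacteroidota had 29.8 to 45.9% before injury (median 39.3%) and 29.7 to 49.5% at 4 wk (median 36.9%). The collections overlapped in both phyla, and the highest share of each was at 4 wk. The mean within-animal change was 0.59 percentage points for Firmicutes and -1.20 for Bacteroidota, and the shifts that the test did not reject ran from -4.18 to 5.3 and from -5.30 to 2.99 points. Actinobacteriota, here mostly Bifidobacterium, averaged 4.24% before injury and 4.64% at 4 wk. Proteobacteria, held here almost wholly by the genus Parasutterella, averaged 0.208% ± 0.0958 (SD, n = 13) and 0.316% ± 0.243 (SD, n = 13). Verrucomicrobiota, a single Akkermansia variant, averaged 1.29% and 0.570%. The p values came from the two-sided exact sign-flip permutation test over animals after Benjamini-Hochberg adjustment (adjusted p = 0.337 for Proteobacteria and 0.786 for the other 4).

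Among families, Muribaculaceae showed the least spread of those plotted between animals in proportion to its share and Erysipelotrichaceae one of the widest. Muribaculaceae held 28.4 to 39.4% of the reads before injury (median 35.5%) and 26.5 to 45.5% at 4 wk (median 34.2%), and 7 animals were higher and 6 lower at 4 wk. Lachnospiraceae, the largest Clostridia family, held 8.64 to 50.4% before injury (median 26.05%) and 11.0 to 52.3% at 4 wk (median 20.4%). Erysipelotrichaceae, here the genera Turicibacter and Dubosiella for the most part, held 0.237 to 26.5% before injury (median 7.66%) and 0.119 to 28.3% at 4 wk (median 16.8%). The collections overlapped in all 3 families, and Muribaculaceae reached both lower and higher shares at 4 wk than before injury. In Erysipelotrichaceae, 9 of 13 animals were higher at 4 wk, and in 1 animal the family went from 1.23% to 19.8%. The log2 fold change from edgeR's quasi-likelihood test, with the animal as a block, was -0.02 ± 0.14 (SE) for Muribaculaceae, -0.17 ± 0.22 for Lachnospiraceae and 0.52 ± 0.42 for Erysipelotrichaceae. Their Benjamini-Hochberg adjusted p values from that test were 0.952, 0.660 and 0.552. The sign for both Muribaculaceae and Lachnospiraceae turned with DESeq2 and with another filter on low counts, and that for Muribaculaceae also with another scaling and with limma.

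**Figure D1:**
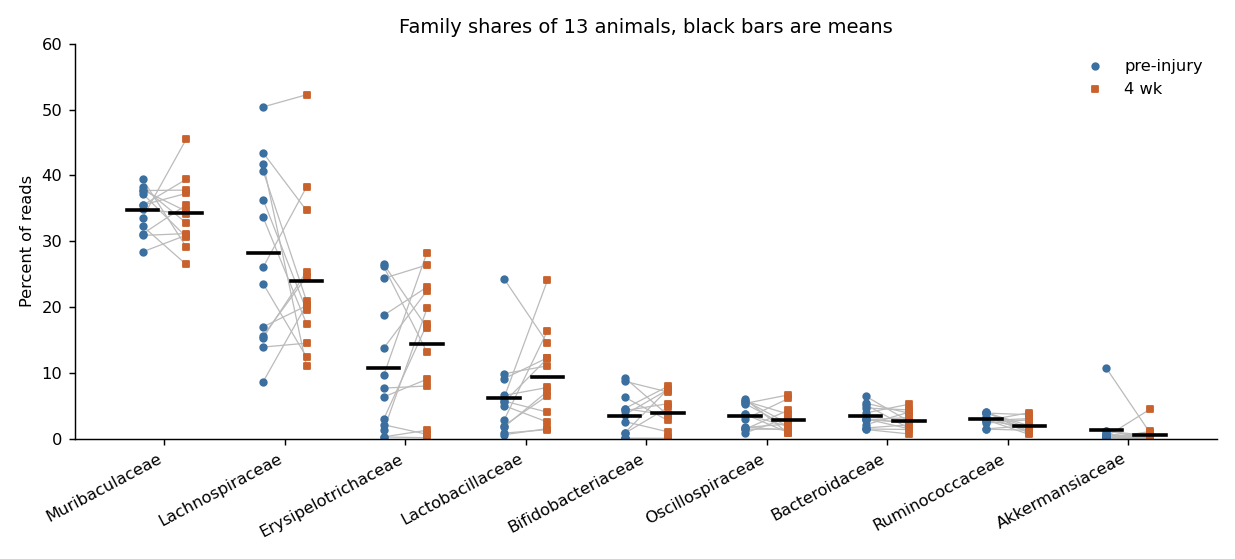
Percent of reads (vertical axis) of the 9 families with a mean share of 1% or more at either collection, each point an animal before injury (blue circles) or at 4 wk (orange squares), with grey lines joining the points of an animal and black bars at the means of 13 animals. Muribaculaceae stayed between 26.5% and 45.5% in every column, while Lachnospiraceae ran from 8.64% to 52.3%.

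Counts were tested at 4 ranks, and none of the 16 orders, 19 families, 39 genera and 185 variants that passed the filter on low counts was called by edgeR's quasi-likelihood test (0% called at each rank, at a Benjamini-Hochberg adjusted p of 0.05). At an unadjusted p below 0.05 there were 1 order, 1 family, 5 genera and 11 variants. Limma on centred log ratios likewise called 0 at each rank. DESeq2 called 2 orders (12.5% of those tested), 2 families (10.5%), 6 genera (15.4%) and 21 variants (11.4%, 13 higher and 8 lower at 4 wk). Of the DESeq2 variants, 16 had no read in at least 5 of the 26 columns, and 11 of the 13 called higher had no read in at least 5 animals before injury. The SE of a fold change was 0.49 at its median over genera and 1.12 over variants (log2 units). Scaling by TMM, which centres each column on the bulk of its taxa, moved the log2 fold changes at some ranks. Without it, the median shift of a taxon's log2 fold change was -0.12 over orders, -0.01 over families, -0.25 over genera and -0.02 over variants.

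Lactobacillus averaged higher at 4 wk, without passing the main test, while Bifidobacterium was higher in 6 animals and lower in 7. Lactobacillus, a genus whose fermentation yields lactate and which here was 3 variants, held 0.577 to 24.3% before injury (median 5.53%) and 1.35 to 24.1% at 4 wk (median 7.76%). The collections overlapped, but 10 of 13 animals were higher at 4 wk, and the mean went from 6.16% ± 6.19 (SD, n = 13) to 9.33% ± 6.63 (SD, n = 13). Its log2 fold change was 0.98 ± 0.43 (SE), with an adjusted p of 0.274 by edgeR's quasi-likelihood test with Benjamini-Hochberg adjustment, 0.327 by limma and 0.0314 by DESeq2. The same genus made up nearly all of the order Lactobacillales, which had a log2 fold change of 0.90 ± 0.38 and an adjusted p of 0.334 by edgeR. Bifidobacterium, the acetate and lactate producer of the Actinobacteriota, was 1 variant with 0.00372 to 9.26% before injury (median 3.61%) and 0 to 7.95% at 4 wk (median 3.58%). Its log2 fold change of 0.18 turned negative without TMM and with limma. Of the 4 genera listed as lactate and acetate producers, these 2 had reads, 0 passed the edgeR test, and their median log2 fold change was 0.58, against 0.04 over all 39 genera.

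The genera of Erysipelotrichales ranged widely between animals at both collections. Turicibacter, spore-forming bacteria of the intestine, held 0.0434 to 20.01% before injury (median 7.25%) and 0.0236 to 20.5% at 4 wk (median 11.6%). Dubosiella, a genus typical of the mouse gut, had a median of 0.347% before injury (0.00596 to 10.9%) and of 3.77% at 4 wk (0.00369 to 8.80%). The collections overlapped in both genera. Dubosiella was higher in 9 of 13 animals, with a log2 fold change of 1.93 ± 1.00 (SE) and an adjusted p of 0.321 by edgeR's quasi-likelihood test with Benjamini-Hochberg adjustment, and of 0.018 by DESeq2. Turicibacter had a log2 fold change of 0.52 ± 0.64 and an edgeR adjusted p of 0.810. Of the 6 Erysipelotrichales genera listed, 4 had reads and 2 could be tested, with 0 past the threshold.

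Of the 39 genera tested, 5 were lower and 3 higher at 4 wk in at least 10 of the 13 animals, none past the adjusted threshold by edgeR. The 5 lower were Akkermansia and 4 genera of Clostridia, and the 3 higher were Lactobacillus and the Clostridia genera Anaerostipes and Marvinbryantia. Colidextribacter, a genus of Oscillospiraceae, held 0.308 to 2.56% before injury (median 0.964%) and 0.149 to 1.34% at 4 wk (median 0.614%). It was lower in 12 of 13 animals, although the ranges overlapped, with a log2 fold change of -0.66 ± 0.24 (SE) and an adjusted p of 0.229 by edgeR's quasi-likelihood test with Benjamini-Hochberg adjustment. Lachnoclostridium, a fermenting genus of Lachnospiraceae, was lower in 11 of 13 animals, with medians of 2.44% (0.484 to 5.26%) and 1.296% (0.761 to 2.96%). Its log2 fold change was -0.48 ± 0.25, and its edgeR adjusted p was 0.321. The Ruminococcaceae genus named Incertae Sedis, a placeholder for members of uncertain placement, had medians of 0.723% (0.304 to 2.11%) and 0.392% (0.140 to 1.62%), and 10 of 13 animals were lower. Lachnospiraceae UCG-006 was also lower in 10 of 13 animals, and its median went from 1.32% to 0.587%. The edgeR adjusted p was 0.229 for Incertae Sedis and 0.234 for Lachnospiraceae UCG-006. At the family rank, Ruminococcaceae, which include fibre-degrading bacteria, averaged 3.03% ± 0.923 (SD, n = 13) before injury and 1.94% ± 1.09 (SD, n = 13) at 4 wk, with 9 of 13 animals lower and an edgeR adjusted p of 0.378.

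The butyrate producers shared no direction. Of the 9 genera listed, 6 had reads, 5 could be tested and 0 passed the edgeR test. The median log2 fold change was 0.04 over the 5 and over all 39 genera. Both medians were the value of 1 listed genus, the Lachnospiraceae NK4A136 group, so their match does not compare the list with other genera. Roseburia, which makes butyrate from fibre and acetate, had medians of 1.43% (0.292 to 4.68%) and 0.539% (0.138 to 6.90%), and 8 of 13 animals were lower. Its mean share, however, was 1.67% before injury and 1.83% at 4 wk, and its log2 fold change by edgeR was -0.14 ± 0.49 (SE). The Lachnospiraceae NK4A136 group, an abundant fermenter in mice, had medians of 9.10% (0.515 to 18.1%) and 6.65% (2.85 to 22.1%), also with 8 animals lower. Anaerostipes, which makes butyrate from lactate, was listed at 0 reads in 6 animals before injury and in 0 at 4 wk. Its median went from 0.0739% (0 to 0.950%) to 0.177% (0.0332 to 0.571%), and 11 of 13 animals were higher. With reads in 7 columns before injury and 13 at 4 wk, it passed the filter on low counts mainly through the 4 wk columns, so its tests are a description. Its fitted log2 fold change was 2.96 ± 1.59 (SE), with an adjusted p of 0.321 by edgeR's quasi-likelihood test with Benjamini-Hochberg adjustment, 0.0895 by limma and 0.00374 by DESeq2. Marvinbryantia, another Lachnospiraceae genus and one chosen after its values were seen, had no reads in 3 animals before injury and in 0 at 4 wk, with a log2 fold change of 2.11 ± 0.80. Its adjusted p was 0.229 by edgeR's quasi-likelihood test with Benjamini-Hochberg adjustment, 0.0895 by limma and 0.00374 by DESeq2, which also called Enterorhabdus (0.0344), a genus of Eggerthellaceae likewise chosen after its values were seen.

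Another 6 genera of at least 0.5%, Muribaculum, A2, Ruminococcus, Oscillibacter, Anaeroplasma and ASF356, lay between log2 fold changes of -0.49 and 0.69, with edgeR adjusted p values of 0.428 to 0.889. Muribaculum, a Muribaculaceae genus that ferments glycans, averaged 3.12% before injury and 3.70% at 4 wk, and 8 of 13 animals were higher. Ruminococcus, which includes degraders of resistant starch and cellulose, averaged 1.29% and 0.910%, and 9 were lower. Oscillibacter averaged 0.992% and 1.01%, the Lachnospiraceae genera A2 and ASF356 1.84% and 1.90% and 0.644% and 0.492%, and Anaeroplasma, which lacks a cell wall, 0.547% and 0.769%. Intestinimonas, a butyrate producer of lower share, averaged 0.0780% and 0.0525% and had an edgeR adjusted p of 0.810.

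**Figure D2:**
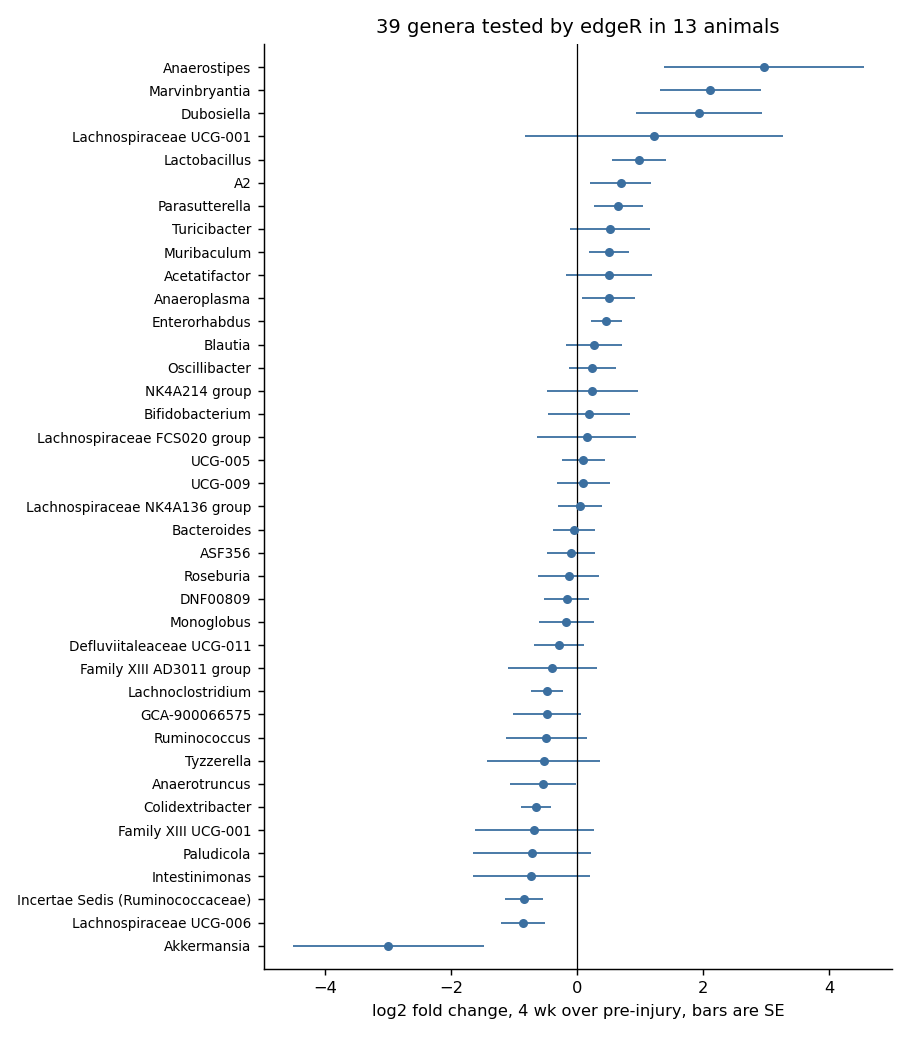
Log2 fold change at 4 wk over pre-injury (horizontal axis) from edgeR's quasi-likelihood test for each of the 39 genera tested in 13 animals, with bars of 1 SE, sorted by value. Akkermansia at -3.002 and Anaerostipes at 2.96 lie farthest from 0, each with an SE above 1.5.

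Akkermansia, the mucin-degrading genus that was here a single variant, ranged from 0.0104 to 10.7% before injury (median 0.524%) and from 0 to 4.44% at 4 wk (median 0.0420%). In 11 of 13 animals its share was lower at 4 wk, and 4 of them had no Akkermansia read, although all 13 had reads before injury. The other 2 animals went the opposite way: in one it went from 0.305% to 4.44%, and in the other from 0.0104% to 1.07%. The mean difference of -0.720 percentage points rested on the animal with 10.7% before injury, since without it the difference was 0.0333 points. The log2 fold change was -3.002 ± 1.52 (SE), with an adjusted p of 0.321 by edgeR's quasi-likelihood test with Benjamini-Hochberg adjustment, 0.152 by limma and 0.0116 by DESeq2. Bacteroides, which degrades dietary and mucin glycans, was 1 variant with medians of 2.97% (1.37 to 6.45%) and 2.46% (0.702 to 5.21%), and 9 animals were lower. Of the 4 names listed as mucin-degrading bacteria, 3 had reads and 0 passed the edgeR test, with a median log2 fold change of -0.06.

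Staphylococcus, a skin-dwelling facultative anaerobe too rare for the main filter on low counts, was higher at 4 wk in 11 animals and lower in 0. It had reads in 3 of 13 animals before injury (4 to 10 reads each) and in 11 of 13 at 4 wk (9 to 235 reads each). Its mean share was 0.00134% ± 0.00269 (SD, n = 13) before injury and 0.0984% ± 0.119 (SD, n = 13) at 4 wk, with medians of 0 and 0.0421%. The collections overlapped at the low end: at 4 wk 2 animals had no staphylococcal read and 1 had 0.00446%, against a highest pre-injury share of 0.00745%. An exact permutation over sign flips, two-sided and added after seeing the data, gave p = 0.000977, the smallest value it can give with 2 animals unchanged. The adjusted p was 0.0508 over 52 genera with reads, above the threshold, and 0.0234 for its family over 24 and 0.0176 for its order over 18. Its family and order held only this genus. Their tests therefore rest on the same reads and differ only in the number of taxa adjusted for. EdgeR's quasi-likelihood test without the filter called the genus, but 10 animals had no read before injury. That call is therefore a description, and its p value and the fitted fold changes are not given. In the collections between, Staphylococcus had reads in 5 animals at 1 d, 9 at 2 d and 7 at 1 wk, with mean shares of 0.00729%, 0.0209% and 0.004%.

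The genus consisted of 2 variants that differ at 4 bases of 439. Staphylococcus variant 225 (variants are numbered by their mean share over the 26 columns) accounted for all staphylococcal reads before injury and for 402 of 860 at 4 wk. Staphylococcus variant 239 had no read in any pre-injury, 1 d or 1 wk column, 18 reads in 1 animal at 2 d, and 458 reads in 7 animals at 4 wk. Enterococcus, a gut-dwelling facultative anaerobe from the same list, was read in 2 animals before injury and in 2 at 4 wk, against 9 at 2 d. Enterobacterales and Streptococcus, the other members of that list, had no read among the named variants of these columns. Nor, among named variants, did the listed Desulfovibrio, Bilophila and Candidatus Arthromitus. Whether the staphylococcal reads came from the gut, the skin or the handling of the samples was not tested, and the DNA extraction groups of the deposited sample table could not be tied to the animal numbers. Of 15 such groups, 6 held samples of both collections, and 5 of the 13 samples at 4 wk were in groups without a pre-injury sample.

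**Figure D3:**
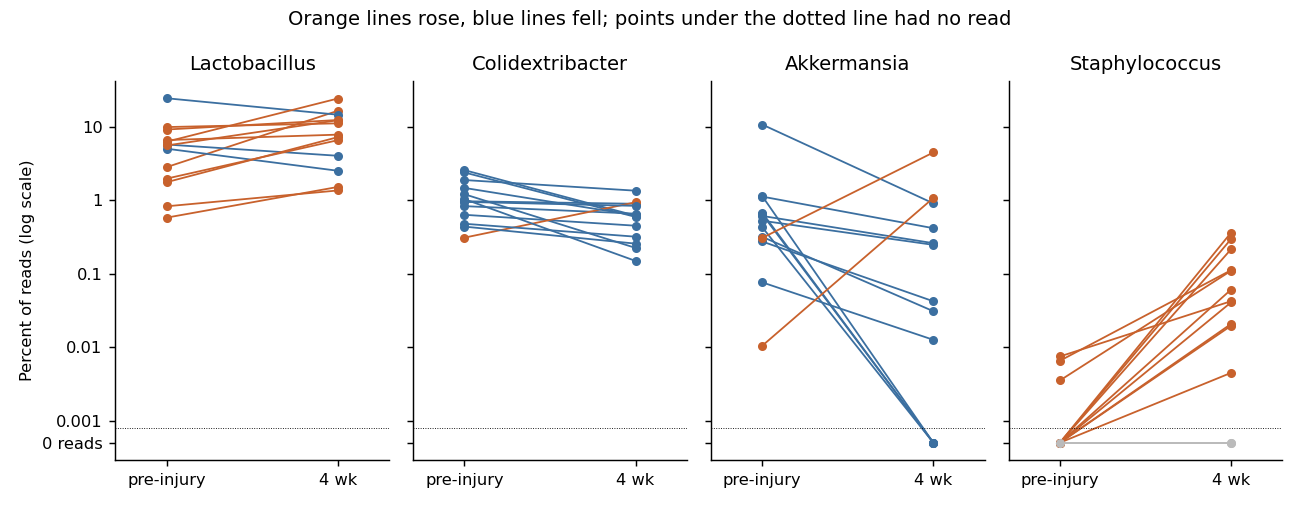
Percent of reads on a log axis before injury and at 4 wk for Lactobacillus, Colidextribacter, Akkermansia and Staphylococcus, each line an animal (n = 13), orange where its share was higher at 4 wk, blue where it was lower and grey where it had no read at both; columns with no read are drawn under the dotted line. Staphylococcus was higher in 11 animals and Colidextribacter lower in 12, while Akkermansia had no read in 4 animals at 4 wk.

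None of the most abundant single variants passed the test. Muribaculaceae variants 1 and 2 averaged 9.21% and 8.54% before injury and 8.88% and 8.39% at 4 wk, and differ at 1 base. Their shares moved together over the 26 columns (Pearson's r of log2 percent 0.97, a description over columns that share animals), at a ratio of mean shares of 1.07. Turicibacter variant 3 averaged 7.47% and 9.44%, Lactobacillus variant 4 averaged 6.05% and 9.13%, and Muribaculaceae variant 5 averaged 3.99% and 4.48%. The other 5 of the 10 most abundant were Bifidobacterium variant 6, Bacteroides variant 7, Lachnospiraceae NK4A136 group variant 8, Muribaculaceae variant 9 and Muribaculum variant 10. In all 10 the edgeR adjusted p was 0.692 or more. Of the 185 variants tested, 9 were higher and 14 lower at 4 wk in at least 10 of the 13 animals.

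The next 3 variants were chosen after their values were seen. Muribaculaceae variant 36 had a median of 0.0363% before injury (0 to 0.429%) and of 0.553% at 4 wk (0 to 2.79%), and was higher in 11 of 13 animals. Lachnospiraceae variant 59 was without reads in 7 animals before injury and in 0 at 4 wk, with a median of 0% (0 to 0.640%) and then 0.153% (0.0165 to 1.54%). It passed the filter on low counts mainly through the 4 wk columns, so its fitted fold change and tests are not given. Colidextribacter variant 38 was lower in 12 of 13 animals, from a median of 0.567% to 0.170%, and had no read in 5 animals at 4 wk, so that it passed the filter mainly through its pre-injury columns and its tests are a description. The log2 fold changes of variants 36 and 38 were 2.99 ± 1.48 and -3.90 ± 1.26 (SE), each with an adjusted p of 0.692 by edgeR's quasi-likelihood test with Benjamini-Hochberg adjustment. The DESeq2 adjusted p values were 0.0129 and 0.00032.

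Diversity within a sample did not change beyond the spread of within-animal changes. The Shannon index, which weighs both the number of variants and the evenness of their shares, was 3.38 to 4.51 before injury (median 3.89) and 3.14 to 4.27 at 4 wk (median 3.71), at 10000 reads. The number of variants at that depth was 170 to 347 (median 243) and 138 to 299 (median 228). The mean change in the Shannon index was -0.112 (two-sided, exact permutation over sign flips, p = 0.490), and shifts between -0.452 and 0.210 were not rejected. For the number of variants it was -5.35 (the same exact test, p = 0.827), and shifts between -55.5 and 41.6 were not rejected. The share of the most abundant variant averaged 12.4% and 14.5%, higher at 4 wk in 10 of 13 animals (the same exact test, p = 0.253).

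Composition as a whole differed between the collections by a small margin. Collection accounted for 5.18% of the variation in Bray-Curtis dissimilarity (PERMANOVA, pseudo-F 1.31, exact over all 8192 swaps of the collections within animals, p = 0.0374). Bray-Curtis dissimilarity runs from 0 for equal shares to 1 for no shared variants. The call held with square roots of the percents (p = 0.0386), reads thinned to equal depth (p = 0.0381) and named variants alone (p = 0.0359), each by the same exact test. It did not hold on presence or absence of variants (p = 0.062), on the centred log ratio scale (p = 0.0674) or with reads summed by genus (p = 0.117), each by the same exact test. In the genus sums, reads without a genus name (means of 44.8% before injury and 43.1% at 4 wk) were grouped by family or the next higher named rank. The call also did not hold when samples were permuted without regard to the animal (permutation test, p = 0.195). That permutation ignores the pairing of the samples, so it is not a test of this design. With the pairing kept, the call was lost on leaving out any of 7 of the 13 animals. Animals were as far from each other at 4 wk as before, at a mean of 0.408 against 0.412 (two-sided exact permutation test over swaps, p = 0.888).

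**Figure D4:**
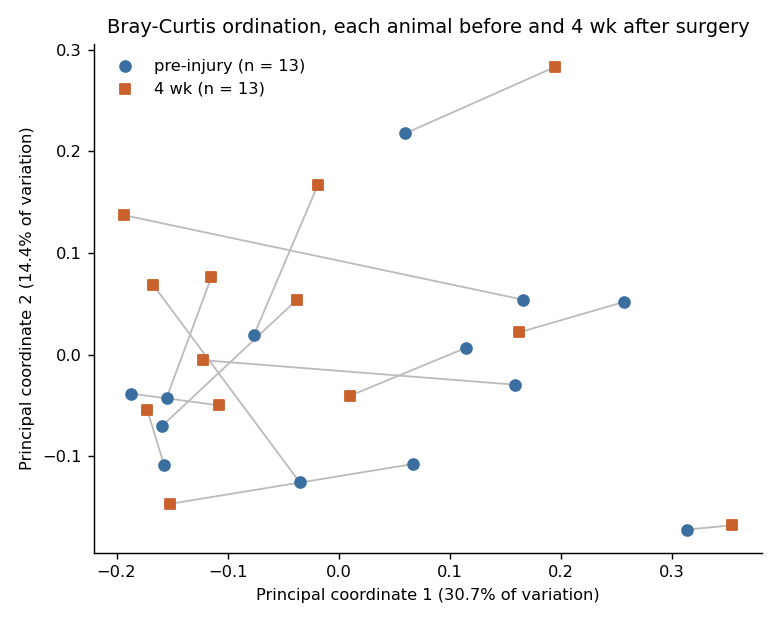
Principal coordinates of Bray-Curtis dissimilarity for the 26 columns, with the percent of variation on each axis (30.7% and 14.4%), blue circles before injury, orange squares at 4 wk and a grey line joining the samples of an animal. The collections intermingle on both axes, and the lines run in different directions.

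Each animal's 4 wk sample lay 0.186 to 0.502 from its own pre-injury sample (median 0.353). The mean was 0.346 ± 0.0783 (SD, n = 13), against 0.422 ± 0.0605 from the pre-injury samples of the other animals. In 10 of 13 animals the own sample was nearer than the mean of the others, and in 4 it was the nearest of all. Variants seen before injury in the same animal carried 82.4 to 97.1% of its 4 wk reads (median 90.3%, at 10000 reads), while they were 144 ± 21.8 of the 233 variants seen at 4 wk (means, n = 13).

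Distance from the pre-injury sample was greater at 4 wk than at earlier collections when rare variants counted more. All these distances share the pre-injury columns. By Bray-Curtis dissimilarity of read percents the means were 0.287 at 1 d, 0.306 at 2 d, 0.311 at 1 wk and 0.346 at 4 wk, and the differences from 4 wk did not pass the two-sided exact sign-flip permutation test (adjusted p = 0.194, 0.215 and 0.194). Scored by presence or absence of variants (Jaccard distance at 10000 reads), the means were 0.466, 0.468, 0.516 and 0.561, and 4 wk was farther in 12, 12 and 11 of 13 animals (the same exact test, adjusted p = 0.0186, 0.00146 and 0.0186). Square roots of the percents and centred log ratios also put 4 wk farthest from pre-injury, past the threshold against all 3 collections. With reads summed by genus the order disappeared: the means were 0.218, 0.244, 0.246 and 0.239, and 4 wk was farther in 7, 8 and 6 animals (the same exact test, adjusted p = 0.869 for each). These sums are in part coarser than genera, since reads without a genus name (means of 44.8% before injury and 43.1% at 4 wk) were grouped by family or above.

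**Figure D5:**
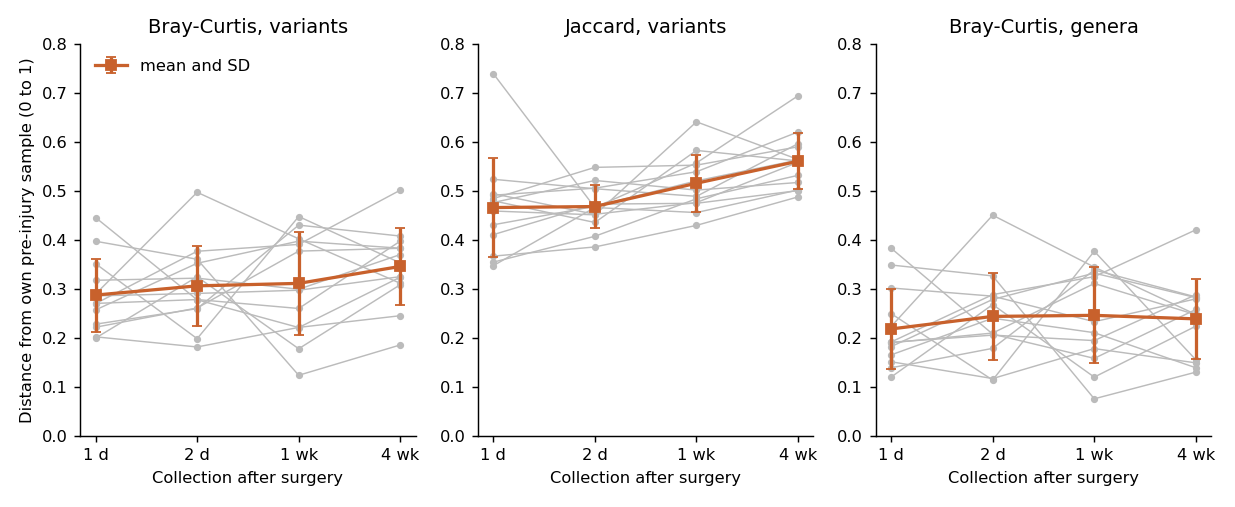
Distance of each animal's sample from its own pre-injury sample (vertical axis, 0 to 1) at 1 d, 2 d, 1 wk and 4 wk, by Bray-Curtis dissimilarity of variants, Jaccard distance of variants and Bray-Curtis dissimilarity of genera, grey lines for 13 animals and orange squares for the mean with SD. The Jaccard mean is 0.466 at 1 d and 0.561 at 4 wk, and the genus mean is 0.218 and 0.239.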

How the data were processed

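In fecal DNA, the authors read the 16s rRNA gene, derived sequence variants by DADA2, discarded chimeras and named the variants from SILVA, whose release the methods and the record number differently. They deposited read counts per variant and column, without normalization. Of 91 columns, 65 were used (5 collections of 13 animals). The 26 columns at 3 d and 2 wk were not used, because each holds 13 columns for 12 labelled samples. Names cover 434 of the 4065 variants, which carried 94.9 to 99.8% of the reads of a pre-injury or 4 wk column.

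Read counts summed by rank were tested with edgeR 4.0.16 (quasi-likelihood, TMM, filterByExpr, animal as a block; R 4.3.3), since the study's ANCOM-BC was not used here. The pre-injury and 4 wk columns were paired by the animal number in their names. Whole-community measures used exact tests over swaps within animals or sign flips, and were tested on simulated data. Alternatives were DESeq2 1.42.0, limma 3.58.1 on centred log ratios of counts plus 0.5, other scalings, filters and distances, and each animal left out. Exact tests of shares over all taxa with reads, and the checks of Staphylococcus, were added after seeing the data. Columns were thinned to 10000 reads, averaged over 20 draws, for diversity and Jaccard distance. Python 3.11.15, NumPy 2.4.6, pandas 2.3.3 and edlib 1.3.9.post1 were used.

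Taxa were named if they were phyla, orders or families of at least 1%, genera of at least 0.5% mean share at either collection, members of the taxon lists, the 10 most abundant variants, or Akkermansia. Parasutterella, Marvinbryantia, Enterorhabdus and variants past the first 10 were picked once values were known. The members and lists were chosen with earlier results of these data known. P values of the paired tests set a change against the spread of within-animal changes over these animals, of which cage mates were not independent.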

Additional observations from a re-analysis of the deposited data

How the results depend on the processing

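The PERMANOVA call was lost under several settings. Its share of variation was 5.18% with p = 0.195 without the replicate block (100000 free permutations, which ignore the pairing). It was 4.88% by Aitchison distance, 4.85% by Jaccard distance and 4.55% by genus, and 4.50 to 6.49% on leaving out each animal. The spread among animals changed sign with square roots (0.00223), Jaccard distance (0.00121) and genus sums (0.000604), and ran from -0.0245 to 0.00953 over left-out animals. For the paired comparisons of counts, 0 taxa were called at each rank without the replicate block. Distances at 4 wk minus those at 1 d, 2 d and 1 wk were 0.101, 0.0827 and 0.0562 with square roots, 12.9, 10.9 and 7.42 by Aitchison distance, and 0.0945, 0.0925 and 0.0449 by Jaccard distance, all past the threshold, while genus sums gave -0.00505 at 2 d and -0.00724 at 1 wk. Without each animal, the difference from 1 d was 0.044 to 0.081 (past the threshold without 1 of them). The change in the number of variants ran from -16.5 to 11.6 and that in the Shannon index from -0.177 to -0.00805. The changes in phylum shares were -0.115 to 0.877 points for Actinobacteriota, -2.45 to -0.131 for Bacteroidota and -0.469 to 1.77 for Firmicutes. They were 0.068 to 0.128 points for Proteobacteria and -1.13 to 0.0333 for Verrucomicrobiota.

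DESeq2 called 2 orders, 2 families, 6 genera and 21 variants. Without the filter on low counts edgeR called 1 order, 1 family and 2 genera, with reads in at least 10 of 26 columns 1 of each, and the exact sign-flip test of shares 1 order and 1 family; the order and family were those of Staphylococcus, which passed the filter of 10 columns only through its 4 wk columns. The causes of the differences between tools were not tested.

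Log2 fold changes near 0 changed sign. Without TMM these were Bacteroidales (-0.053), Bifidobacteriales (-0.020), Bifidobacteriaceae (-0.014), Lachnospiraceae NK4A136 group (-0.24), Bifidobacterium (-0.045) and Oscillibacter (-0.022). With limma they were Bacteroidales (-0.15), Bifidobacteriales (-0.17), Muribaculaceae (0.047), Bifidobacteriaceae (-0.00086), Lachnospiraceae NK4A136 group (-0.068), Bifidobacterium (-0.021) and Muribaculaceae variants 5 (-0.010) and 9 (-0.19). With DESeq2 they were Lachnospirales (0.099), Clostridia UCG-014 (0.16), Muribaculaceae (0.35), Lachnospiraceae (0.19), Oscillospiraceae (0.0017), Bacteroidaceae (0.048), Bacteroides (0.020), ASF356 (0.012), Muribaculaceae variants 1 (0.056) and 2 (0.082) and Bifidobacterium variant 6 (0.019). With TMMwsp they were Clostridia UCG-014 (0.0091), Muribaculaceae (0.15) and its variants 1 (0.020) and 2 (0.045). Without the filter they were Muribaculaceae (0.14), Bacteroides (0.066), Roseburia (0.016), ASF356 (0.048), Muribaculaceae variants 1 (0.16) and 2 (0.19) and Bifidobacterium variant 6 (0.090). With reads in 10 of 26 columns they were Muribaculaceae (0.21), Lachnospiraceae (0.056), Muribaculaceae variants 1 (0.031) and 2 (0.056) and Bifidobacterium variant 6 (0.0050). Without the replicate block they were Roseburia (0.50), ASF356 (0.0042) and Bifidobacterium variant 6 (0.15).

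Over left-out animals the log2 ranges that crossed 0 were Bacteroidales -0.024 to 0.16, Lachnospirales -0.23 to 0.0092, Bifidobacteriales -0.18 to 0.30, Clostridia UCG-014 -0.24 to 0.079, Muribaculaceae -0.076 to 0.26, Lachnospiraceae -0.23 to 0.22, Bifidobacteriaceae -0.21 to 0.40, Oscillospiraceae -0.49 to 0.092, Turicibacter -0.057 to 0.81, Lachnospiraceae NK4A136 group -0.36 to 0.17, Bifidobacterium -0.35 to 0.44, Bacteroides -0.47 to 0.10, Roseburia -0.58 to 0.083, Oscillibacter -0.16 to 0.43, ASF356 -0.51 to 0.040, Muribaculaceae variants 1 (-0.097 to 0.063), 2 (-0.076 to 0.089) and 9 (-0.076 to 0.16) and Bifidobacterium variant 6 (-0.27 to 0.17). Among the other taxa described, leaving out 1 animal moved the log2 fold change by over 1.5 times in Erysipelotrichales (0.33 to 0.74), Erysipelotrichaceae (0.35 to 0.94), Lactobacillaceae (0.60 to 1.19), Bacteroidaceae (-0.38 to -0.025), Ruminococcaceae (-0.88 to -0.41), Lactobacillus (0.64 to 1.14), Muribaculum (0.16 to 0.66), Lachnoclostridium (-0.80 to -0.40), A2 (0.39 to 0.90), Ruminococcus (-0.94 to -0.34), Colidextribacter (-1.02 to -0.59), Anaeroplasma (0.079 to 0.71), Intestinimonas (-1.21 to -0.42), Enterorhabdus (0.15 to 0.54) and 5 of the 10 most abundant variants. Counts of edgeR calls were 0 without each animal in turn. Depth limits low-share taxa, and pooling of sham and CCI animals limits every comparison to time after surgery.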

Other observations

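Variants that differ at few bases did not always move together. Among the 185 variants tested, 20 pairs differed at 1 base, and Pearson's r of their log2 percents over the 26 columns ranged from -0.74 to 0.99 (median 0.75, a description over columns that share animals). Lachnoclostridium variants 23 and 51, the pair with the lowest value and so chosen after it was seen, had reads together in 3 of 13 animals before injury and in 4 at 4 wk. Variant 23 had a mean share of 1.14% before injury, 1.19% at 1 d, 0.827% at 2 d, 0.563% at 1 wk and 0.301% at 4 wk. Variant 51 had 0.24%, 0.246%, 0.249%, 0.0499% and 0.234%, but before injury it had reads in 5 animals, a median of 0 and a highest share of 2.60%, and at 4 wk reads in 8 animals, a median of 0.157% and a highest share of 0.82%. DESeq2 called variant 51 higher at 4 wk, and edgeR's quasi-likelihood test did not. It had no read in 8 of 13 animals before injury and in 5 at 4 wk. Its tests are therefore a description, and their p values are not given. The number of animals in which variant 51 had the larger share was 2 before injury and 5 at 4 wk.

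Butyricicoccus, a butyrate producer under the filter on low counts, had reads in 1 animal before injury and in 8 at 4 wk, with mean shares of 0.00135% and 0.0149% (two-sided exact sign-flip permutation test, n = 13, p = 0.0313, adjusted p = 0.203 over 52 genera). Without the filter on low counts, edgeR's quasi-likelihood test called 2 genera, Butyricicoccus and Staphylococcus. Butyricicoccus had no read in 12 animals before injury, so its call is a description and its p value is not given.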
